A study of Mus musculus with 20 samples.

Results

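The genes followed here were 10 genes of water and glycerol transport in mouse liver, namely the channels Aqp1, Aqp3, Aqp4, Aqp7, Aqp8, Aqp9 and Aqp11 and the glycerol enzymes Gyk (listed as Gk in the count table), Gpd1 and Gpd2. They were 10 of the 46095 gene symbols in the table and were taken by name. The set was chosen by the Aqp4 counts of these same libraries, in which the diet response differed between genotypes, so the Aqp4 values are a description and carry no test. The other 9 members were tested. The RNA came from the livers of 20 mice, with 5 mice a group and 4 groups. Wild-type (WT) animals and mice carrying a conditional deletion of Pck1, labelled Pck1-cKO and called KO here, were fed for 24 weeks either chow or a NASH diet (named for non-alcoholic steatohepatitis), and were 31 to 33 weeks old. Strain, sex and the Cre driver are not given in the labels, and nothing in them says whether the mice of a group were littermates or handled together, so p-values measure the spread between these libraries.

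Aquaporins are membrane channels. Aqp1 and Aqp4 conduct water, and Aqp8 conducts water and small solutes such as hydrogen peroxide and ammonia. Aqp3, Aqp7 and Aqp9 are aquaglyceroporins, which also pass glycerol. Adipocytes release glycerol from stored fat, in which Aqp7 takes part, and hepatocytes take it up, chiefly through Aqp9. Glycerol kinase, encoded by Gyk, traps the glycerol as glycerol-3-phosphate. This is either esterified into triglyceride or oxidised by the cytosolic dehydrogenase Gpd1 or the mitochondrial dehydrogenase Gpd2 to dihydroxyacetone phosphate, which enters gluconeogenesis after the step of Pck1. Pck1 encodes cytosolic phosphoenolpyruvate carboxykinase, which makes phosphoenolpyruvate from oxaloacetate.

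The libraries held 9958935 to 20601955 counts, and levels are given as CPM, each gene's share of the TMM-scaled library total. Pck1 was 3573 ± 1139 CPM (SD, n = 5) in WT chow and 626 ± 175 in KO chow, and 2290 ± 511 in WT NASH and 445 ± 112 in KO NASH. It fell in KO on chow (log2 fold change -2.51, edgeR quasi-likelihood adjusted p = 0.00011) and on the NASH diet (-2.36, adjusted p = 6.13e-05). Read from Y-linked genes and Xist, 13 mice were male and 7 female, and the sexes were uneven across groups, with 5 males of 5 among WT mice on chow and 1 on the NASH diet, and 3 and 4 among KO mice. In 6 libraries (KO chow replicates 4 and 5, WT NASH replicate 4, and 3, 4 and 5 of WT chow) log2 CPM fell with gene length relative to the mean of all libraries, with slopes of -0.34 to -0.25 against 0.01 to 0.19 in the other 14. Member results with an unadjusted edgeR p under 0.05 in the fit without these terms were followed singly. Those that changed their call with sex, with that slope or without these libraries are marked as such. Other members that gained a call there enter the counts at the end and are not named. Hepatocyte markers summed to 49179 CPM or more in every library. Summed marker levels in WT chow, WT NASH, KO chow and KO NASH, in that order, overlapped between all groups for cholangiocytes (56.2 to 266, 49.1 to 531, 36.8 to 254 and 57.2 to 263 CPM) and for stellate cells and fibroblasts (126 to 676, 211 to 671, 206 to 973 and 322 to 475 CPM). Those of macrophages were 245 to 892, 343 to 695, 386 to 953 and 278 to 374 CPM, and those of endothelial cells 201 to 318, 162 to 248, 242 to 300.4 and 202 to 324 CPM. Sums can hide single markers, and Spp1 made up most of the cholangiocyte sum. Single markers called in KO with the NASH diet were Sox9 of cholangiocytes (1.82, edgeR adjusted p = 0.0326), Col1a1 of fibroblasts (2.26, adjusted p = 0.0287) and, lower, the globins Hbb-bs and Hbb-bt. Lyve1 (1.62, adjusted p = 0.00866) and Kdr (0.66, adjusted p = 0.0323) of endothelial cells and, lower, Cela1 (-3.15, adjusted p = 0.00288) were called in KO NASH against WT NASH. Cd68 of macrophages was called in WT with the NASH diet (1.01, edgeR adjusted p = 0.038) and in KO on chow (1.03, adjusted p = 0.036). Hbb-bs and Hbb-bt were called lower in WT with the NASH diet. The other macrophage markers were not called, from -0.48 (Marco) to 0.51 (Csf1r) in WT with diet and 0.17 (Clec4f) to 0.54 (Adgre1) in KO on chow. Nor were those beside Col1a1 in KO with diet, from -0.57 (Dcn) to 0.94 (Pdgfrb). The cholangiocyte markers beside Sox9 were not called there, from 0.06 (Krt7) to 1.09 (Epcam). In KO NASH against WT NASH the endothelial markers beside Lyve1 and Kdr were not called, from -0.24 (Clec4g) to 0.6 (Pecam1). A single called marker does not show a change of its cell type. The part of these markers in the members' values was not tested. Skeletal muscle markers stayed at or under 0.883 CPM. In whole liver, fewer cells of a type and less RNA per cell cannot be told apart.

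Of the 9 tested members, 2 glycerol channels, Aqp3 and Aqp7, were higher in KO than in WT liver on both diets. Glycerol kinase was lower on the NASH diet in WT, and Aqp3 was lower on the NASH diet in KO. By count, the diet called 1 member in WT (Gyk, lower) and 1 in KO (Aqp3, lower) at an edgeR adjusted p under 0.05. Of all 14440 tested genes, 5.93% were called in WT (3.24% lower) and 3.29% in KO (1.52% lower). KO against WT called Aqp3 and Aqp7 on each diet, 2 members higher, beside 5.53% of all genes on chow (3.03% higher) and 9.65% on the NASH diet (4.9% higher). Over the whole table, 198 genes (1.37%) were called higher in KO on both diets. For the interaction, edgeR called none of the 9 members, with 1 member (Gpd2) at an unadjusted p under 0.05, where edgeR called 0.139% of all genes. DESeq2 and limma-voom called Gpd2, where they called 1.31 and 13.5% of all genes. Median log2 fold changes over the 9 members were -0.33 and -0.32 for diet in WT and KO, and 0.31 and 0.22 for genotype on chow and the NASH diet, and those of all tested genes were 0.01, -0.02, 0 and 0. With so few members, and with Aqp3 and Aqp7 entering through their KO levels, these counts and medians are a description and support nothing further.

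Aqp7 and Aqp3 lie side by side on chromosome 4 and were nearly absent from WT liver but present in every KO liver. On GRCm38 with the GENCODE M21 annotation, Aqp3 spans chr4:41092722-41098183 and Aqp7 spans chr4:41033074-41048139, both protein-coding genes on the minus strand. A gap of 44.6 kb separates them and holds 1 annotated gene, a small nuclear RNA. Because both genes appear in the knockout together, the 250 bases before their start sites are shown, from RefSeq on GRCm38.p6, 5′ to 3′ on the minus strand, for Aqp3 at chr4:41098184-41098433 and for Aqp7 at chr4:41048137-41048386 (the upstream one of 2 listed starts). Capitals mark matches to the motifs searched on both strands, which were AGGTCA (a nuclear receptor half-site), TGTTTAC (a forkhead site) and TATAAA (the TATA box).
Aqp3: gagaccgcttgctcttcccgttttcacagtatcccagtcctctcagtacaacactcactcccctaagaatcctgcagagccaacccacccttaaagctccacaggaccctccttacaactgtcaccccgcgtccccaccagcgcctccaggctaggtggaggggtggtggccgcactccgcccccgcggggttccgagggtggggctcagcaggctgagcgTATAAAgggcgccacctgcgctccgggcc
Aqp7: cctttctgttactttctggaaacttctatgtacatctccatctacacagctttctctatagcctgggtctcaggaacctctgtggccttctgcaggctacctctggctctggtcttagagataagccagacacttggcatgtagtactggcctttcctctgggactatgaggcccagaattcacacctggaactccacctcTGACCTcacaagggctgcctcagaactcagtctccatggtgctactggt
The Aqp3 window was GC-rich (64.0%) and held 1 TATAAA, 29 to 24 bases before the start, a motif present in 12.4% of all 32851 listed promoters. The Aqp7 window (50.8% GC) held 1 AGGTCA, printed as its reverse complement TGACCT, 49 to 44 bases before the start, and this motif was in 14.0% of promoters. TGTTTAC, in 3.17% of promoters, was in neither. A match describes these letters only. The 2 windows shared none of the 3 motifs.

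Aqp7, the glycerol channel best known from adipocytes, had 0, 0, 0, 1 and 0 counts in the 5 WT chow livers and 0, 0, 0, 0 and 1 in WT NASH. KO chow livers had 91, 228, 30, 171 and 111 counts (4.22, 9.17, 1.49, 12.4 and 6.74 CPM, mean 6.81 ± 4.24). KO NASH livers had 231, 105, 76, 43 and 206 counts (9.85, 4.49, 4.72, 2.06 and 9.34 CPM, mean 6.09 ± 3.37). Every KO library was above every WT library on both diets, as for 2.26% of all tested genes on chow and 7.67% on the NASH diet. Per summed library size, the KO to WT ratio of counts was 458 on chow (631 against 1 counts, exact 95% interval 81.9 to 18126) and 444 on the NASH diet (661 against 1 counts, interval 79.4 to 17570), and these intervals cover counting error only. Aqp7 rose in KO on chow, with an edgeR adjusted p of 3.67e-05, and on the NASH diet (adjusted p = 1.44e-05). Because it passed the low-count filter only through the KO groups, the fit without that filter bears on it, and there the adjusted p was 2.25e-06 on chow and 1.01e-06 on the NASH diet. A library with 0 counts allows up to 3 counts, which is 0.121 to 0.441 CPM over all 20 libraries, KO included. The KO libraries of the 2 diets overlapped from end to end.

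Cfd was the only 1 of the 5 adipocyte markers above 0.545 CPM in any library. Lep was at 0 in all 20 libraries, and Plin1, Retn and Adipoq were at or under 0.545 CPM everywhere, with the highest Plin1 and Adipoq in WT NASH. Cfd, a serine protease secreted by fat cells, rose in KO NASH (edgeR adjusted p = 0.000687), where it lay between 3.59 and 54.4 CPM, against 0 to 0.0646 CPM in WT NASH. On chow it was 0 to 1.11 CPM in WT and 0.149 to 5.08 CPM in KO. The 5 adipocyte markers together summed in WT to 0 to 1.32 CPM on chow and 0.452 to 0.969 on the NASH diet, and in KO to 0.248 to 5.15 and 3.59 to 54.5. The part of Cfd-expressing cells in the Aqp7 values was not tested.

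Aqp3, a water and glycerol channel of epithelia, had 2, 1, 0, 4 and 0 counts in WT chow and 1, 3, 0, 0 and 0 in WT NASH. KO chow livers had 176, 141, 16, 90 and 48 counts (8.15, 5.67, 0.792, 6.53 and 2.92 CPM, mean 4.81 ± 2.94). KO NASH livers had 32, 24, 21, 4 and 24 counts (1.36, 1.03, 1.3, 0.192 and 1.09 CPM, mean 0.995 ± 0.471). KO was above WT without overlap on chow, as for 2.26% of all genes. Aqp3 rose in KO on chow (log2 difference 5.46 with an SE of 0.823, edgeR adjusted p = 0.000788), with 471 against 7 summed counts and a ratio of 48.9 (95% interval 23.5 to 122). It rose in KO on the NASH diet as well (4.00, SE 0.934, adjusted p = 0.00928), with 105 against 4 counts and a ratio of 17.6 (6.69 to 65.9). The intervals of both ratios cover counting error only, not the spread between mice. On the NASH diet the groups came close, the lowest KO library having 4 counts and the highest WT library 3. In males only, where the single WT NASH library had 0 counts, the adjusted p was 0.116. Both Aqp3 and Aqp7 passed the low-count filter only through the KO groups, so they could pass it only by differing from WT. Without the filter the adjusted p of Aqp3 was 0.000182 on chow and 0.00649 on the NASH diet.

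Within KO liver, Aqp3 fell by 2.27 on the log2 scale with the NASH diet (SE 0.613, edgeR adjusted p = 0.0455), while the diet difference of Aqp7 was not called (adjusted p = 0.862). This call stood close to its threshold. It was lost without the low-count filter (adjusted p = 0.0528), in a fit of the 2 groups alone (0.0572), with males only (0.0629), with replicates as blocks (0.0868), with KO NASH replicates 1 and 5 summed (0.0854), and without any 1 of WT NASH replicates 1, 3 and 5, KO chow replicates 1, 2, 4 and 5 or any KO NASH library (up to 0.101). The red blood cell markers moved alongside, with sums in KO of 90.2 to 182 CPM on chow and 34.5 to 86.5 on the NASH diet, and in WT of 81.4 to 245 and 25 to 179, where Aqp3 had at most 4 counts. Summed macrophage markers were lower too, at 386 to 953 CPM in KO mice on chow and 278 to 374 on the NASH diet. No single macrophage marker was called there. Their log2 fold changes ran from -2.46 (Marco) to 0.05 (Cd68), with Csf1r at -0.16. In KO chow the 2 females had the lowest Aqp3, at 0.792 and 2.92 CPM, against 5.67 to 8.15 in the 3 males. The part of these markers and of sex in the Aqp3 diet difference was not tested. The lowest KO library of each diet was the same for both genes, KO chow replicate 3 and KO NASH replicate 4.

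**Figure D1:**
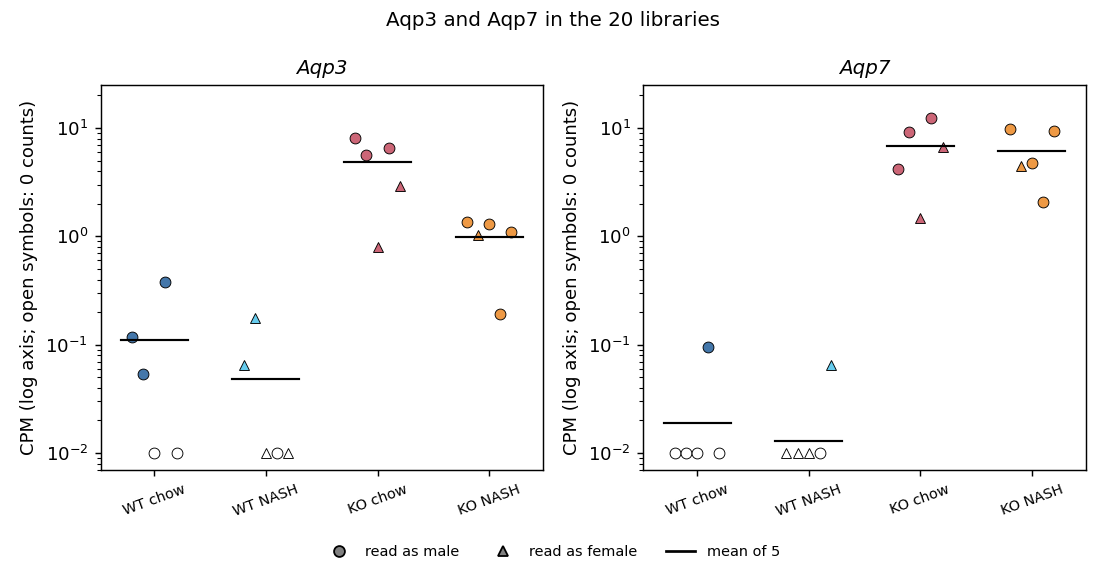
Aqp3 (left) and Aqp7 (right) in each of the 20 libraries, as CPM on a log axis with libraries of 0 counts drawn at the foot; points are libraries and bars the group means. All KO points lie above the WT points for Aqp7, from 1.49 to 12.4 CPM, and KO chow Aqp3 (mean 4.81 CPM) stands above KO NASH (0.995 CPM).

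Aqp4, a water channel best known from astrocytes, is encoded on chromosome 18. It was 12.9, 8.5, 12.6, 8.83 and 9.56 CPM in WT chow (10.5 ± 2.11) and 1.23, 0.771, 0.484, 0.441 and 0.646 CPM in WT NASH (0.714 ± 0.315, from 3 to 19 counts a library). In KO chow it was 15.7, 18.4, 27.9, 22.3 and 24.9 CPM (21.8 ± 4.88), and in KO NASH 10.5, 10.4, 5.22, 16.6 and 10 CPM (10.5 ± 4.03). WT NASH livers stood apart from all others, KO NASH and WT chow had the same mean, and only KO NASH and KO chow overlapped among the 4 comparisons of groups. Of all tested genes, 3.25% were lower without overlap in WT NASH than in WT chow. KO was above WT without overlap for 2.26% on chow and 7.67% on the NASH diet. The log2 fold change with diet was -3.82 in WT and -1.05 in KO. The KO to WT log2 fold change was 1.06 on chow and 3.83 on the NASH diet. The difference between the 2 diet effects was 2.78, the value for which the gene was chosen, so no error or interval is set on it and the spread is that of the libraries above.

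That difference was larger with sex as a term in the model (3.19) and in males only (3.72), where WT NASH was the single male library of 0.441 CPM. It was 2.77 with the length slope as a term and 2.56 to 3.06 when 1 library was left out. These fits reuse the libraries by which Aqp4 was chosen, so they describe the value and do not test it. In KO chow the 2 females, at 24.9 and 27.9 CPM, were above the 3 males, at 15.7 to 22.3 CPM. The annotation has an antisense gene over Aqp4, and it also has antisense genes over Aqp9, Gyk and Gpd1. The sources used here do not give the strand setting of the counting, so reads from these partners could not be told apart.

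**Figure D2:**
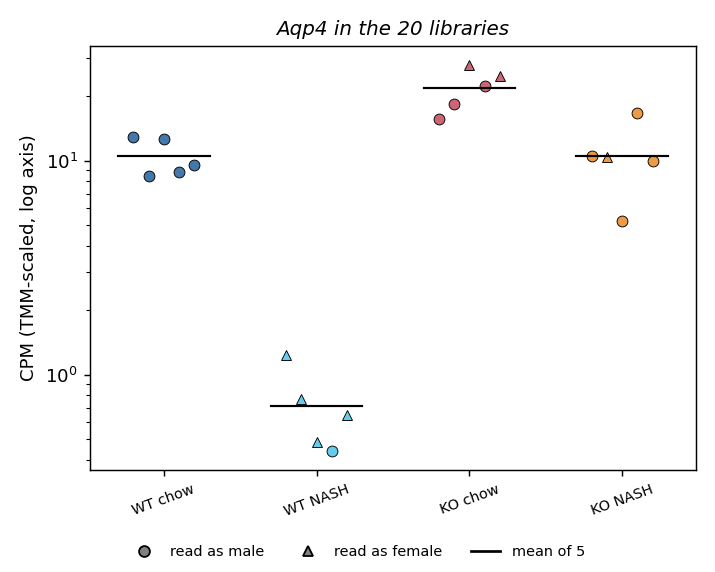
Aqp4 in each library, as CPM on a log axis; points are libraries, marked by the sex read from Y-linked genes and Xist, and bars are group means. WT NASH lies at 0.441 to 1.23 CPM, and the KO NASH points spread around the WT chow mean of 10.5 CPM.

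Aqp8, at chr7:123462291-123468004 on the plus strand, had values of 8.88, 11, 20.8, 16.6 and 35.1 CPM in WT chow (18.5 ± 10.4) and 48.9, 59.1, 52.2, 64.4 and 45.8 in WT NASH (54.1 ± 7.62). In KO chow it was 8.8, 5.75, 16.2, 25.7 and 58 CPM (22.9 ± 21.1) and in KO NASH 16.3, 31.3, 33.4, 35.6 and 13.1 (25.9 ± 10.4). WT NASH was above WT chow without overlap, but the increase missed the threshold (log2 difference 1.55 with an SE of 0.489, edgeR adjusted p = 0.0644). It passed by DESeq2 (1.53, adjusted p = 0.0225) and limma-voom (1.4, adjusted p = 0.006), and without any 1 of WT chow replicate 5 and KO chow replicates 2 and 5 (down to 0.0267). It passed also with the length slope as a term (2.27, adjusted p = 0.00019) and without the 6 libraries of negative slope (2.4, adjusted p = 0.00865), as well as with sex and slope together (1.61, adjusted p = 0.00419), with replicates as blocks (0.0252) and in the 2 groups alone (0.029). It did not pass with sex as the single term (1.11, adjusted p = 0.389) or in males only (1.8, adjusted p = 0.26). KO NASH was below WT NASH without overlap and likewise missed the threshold (-1.06, SE 0.482, adjusted p = 0.17). That difference was called by limma-voom (-1.08, adjusted p = 0.0118), in the 2 groups alone (-1.07, adjusted p = 0.0261) and without the 6 libraries (-1.0, adjusted p = 0.0316), and it was -0.19 with sex and slope as terms (adjusted p = 0.725). Of all tested genes, 2.9% were higher without overlap in the first contrast and 6.44% lower without overlap in the second. Exocrine pancreas markers, mainly Cela1, summed to 7.11 to 24.7 CPM in WT chow, 11.9 to 109 in NASH-fed WT, 2.61 to 10.3 in chow-fed KO and 3.54 to 4.7 in NASH-fed KO, with Prss2 at 0 in every library, and their part was not tested.

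Aqp9 (chr9:71110659-71168682, minus strand), the main glycerol channel of hepatocytes, was the most abundant aquaporin in every group, with levels in WT of 464 ± 103 CPM (chow) and 369 ± 71.6 (NASH diet) and in KO of 435 ± 152 (chow) and 349 ± 34.4 (NASH diet). Aqp1 (chr6:55336432-55348555, plus strand), found on endothelial and bile duct cells, was 107 ± 27.4, 85.2 ± 19.5, 94.3 ± 18.4 and 99.1 ± 10.9 CPM in the same order. Aqp11 (chr7:97724006-97738289, minus strand), a channel of the endoplasmic reticulum, was 20.2 ± 5.28, 15.4 ± 3.35, 23.5 ± 6.14 and 18.6 ± 3.59 CPM. Gpd1 (chr15:99717515-99725005, plus strand) was 276 ± 22, 267 ± 97.7, 260.1 ± 48.4 and 284 ± 128 CPM. These 4 genes gave 16 fold changes over the 4 comparisons, from -0.39 to 0.27 on the log2 scale, with 95% intervals within -0.85 to 0.72 and edgeR adjusted p from 0.304 to 0.944. The groups overlapped in all 16. For Aqp9 the intervals reached from -0.8 to 0.4, so that a fall of that size is not shown to be absent.

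Glycerol kinase, encoded by Gyk at chrX:85701937-85776819 on the minus strand, fell with the NASH diet in WT liver. Gyk was 272, 256, 370.2, 502 and 264 CPM in WT chow (333 ± 105) and 150.2, 161, 198, 150.2 and 171 in WT NASH (166 ± 19.9), a log2 difference of -1 (SE 0.253, edgeR adjusted p = 0.0242). The groups did not overlap, as for 3.25% of all genes in that direction. In KO it was 627, 761, 300.2, 389 and 574 CPM on chow (530.2 ± 185) and 277, 284, 385, 239 and 237 on the NASH diet (285 ± 60.3), a log2 difference of -0.90 that missed the threshold (SE 0.253, adjusted p = 0.0553). KO livers were at higher mean levels than WT on both diets, and neither difference passed (chow 0.67, SE 0.252, adjusted p = 0.13, and NASH diet 0.78, SE 0.252, adjusted p = 0.0559, the latter without overlap, as for 7.67% of all genes in that direction). The KO diet difference was called by DESeq2 (-0.92, adjusted p = 0.008), by limma-voom (-1.0, adjusted p = 0.00594), with sex (0.0498), slope (0.0347) or both (0.0259) as terms, without the 6 libraries of negative slope (-0.98, adjusted p = 0.0259), and without WT chow replicate 4, WT NASH replicate 4 or KO chow replicate 3. The KO to WT difference on the NASH diet was called by the same tools (adjusted p = 0.0203 and 0.00398), in the 2 groups alone (0.0141), with the slope as a term (0.036), without the 6 libraries (0.0365), and without WT chow replicate 4 or KO chow replicate 2, 3 or 5. The WT call was lost with sex as a term (-0.89, adjusted p = 0.222), with sex and slope as terms (-0.88, adjusted p = 0.126), with males only (-1.15, adjusted p = 0.316), without the 6 libraries of negative slope (-0.61, adjusted p = 0.23), and without any 1 of WT chow replicates 3 and 4 or WT NASH replicates 1, 2 and 5 (up to 0.0711). WT chow replicates 3 and 4, the highest of their group, were among those 6 libraries.

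Gpd2, at chr2:57237635-57370719 on the plus strand, had its highest means in WT NASH and KO chow. It was 27.7, 27, 14.8, 15.5 and 14.3 CPM in WT chow (19.9 ± 6.84) and 40.6, 41.1, 42.4, 19.4 and 48.8 in WT NASH (38.5 ± 11.1). KO livers had 50.7, 49.1, 34.7, 23.1 and 29.9 CPM on chow (37.5 ± 12) and 16.9, 31.7, 21.7, 35.4 and 17.7 on the NASH diet (24.7 ± 8.4). No contrast passed by edgeR. The log2 differences were 0.95 with diet in WT (SE 0.294, edgeR adjusted p = 0.0583), 0.91 for KO against WT on chow (SE 0.293, adjusted p = 0.0746) and -0.64 for KO against WT on the NASH diet (SE 0.291, adjusted p = 0.169). The difference between the diet effects was -1.56 (SE 0.413, adjusted p = 0.148). By DESeq2 and limma-voom the WT diet difference was called (adjusted p = 0.0228 and 0.000498), as was the KO to WT difference on chow (0.0283 and 0.00104). With the slope as a term all 3 were called, at 0.72 (adjusted p = 0.0362), 0.73 (0.0297) and -0.81 (0.0126). The KO to WT difference on the NASH diet was called also by limma-voom (0.00461) and without the 6 libraries (-0.82, adjusted p = 0.0149). The WT diet difference was called with replicates as blocks (0.0429), at a mean of at least 5 CPM (0.0478) and without WT chow replicate 1 or 2, WT NASH replicate 4 or KO chow replicate 4, and the KO to WT difference on chow without WT chow replicate 1, WT NASH replicate 4 or KO chow replicate 4 or 5. Without WT NASH replicate 4 the difference between the diet effects was called too (-1.73, adjusted p = 0.0275). That difference stayed uncalled in 29 of its 33 alternatives, sex as a term among them. In males only the WT diet difference was -0.04 and the KO to WT difference on the NASH diet 0.24. In WT NASH the lowest library by a wide margin was replicate 4, the single male and the single library of negative slope there.

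**Figure D3:**
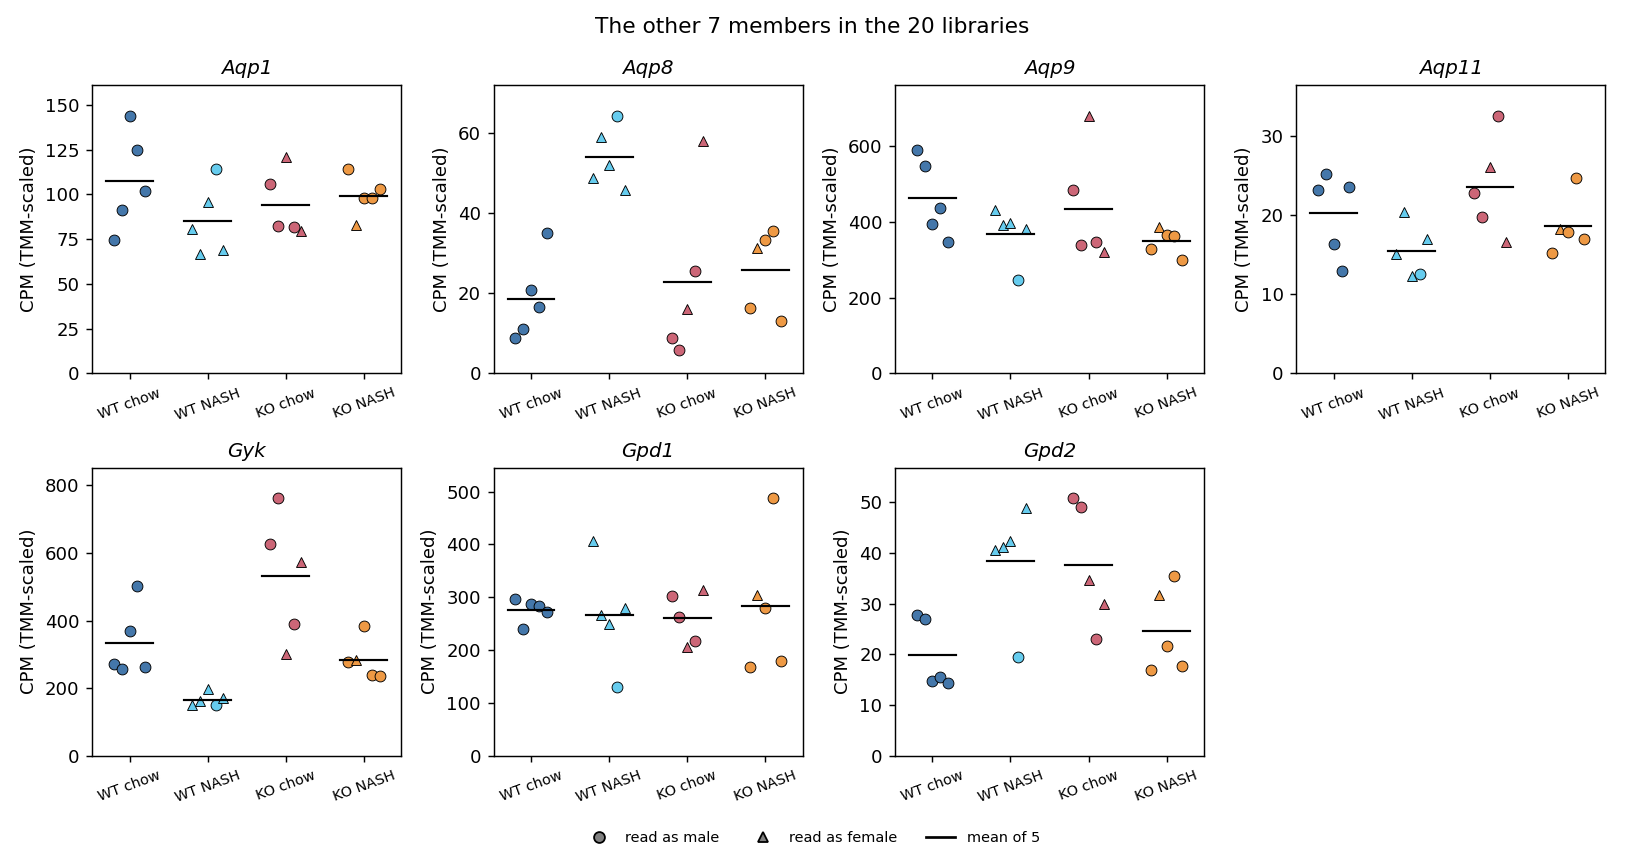
The other 7 members in each library, as CPM on linear axes from 0 with 1 panel a gene; points are libraries and bars group means. Gyk is lowest in WT NASH (mean 166 CPM), Aqp8 highest in WT NASH (54.1 CPM), and Aqp1, Aqp9, Aqp11 and Gpd1 overlap between all groups.

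**Figure D4:**
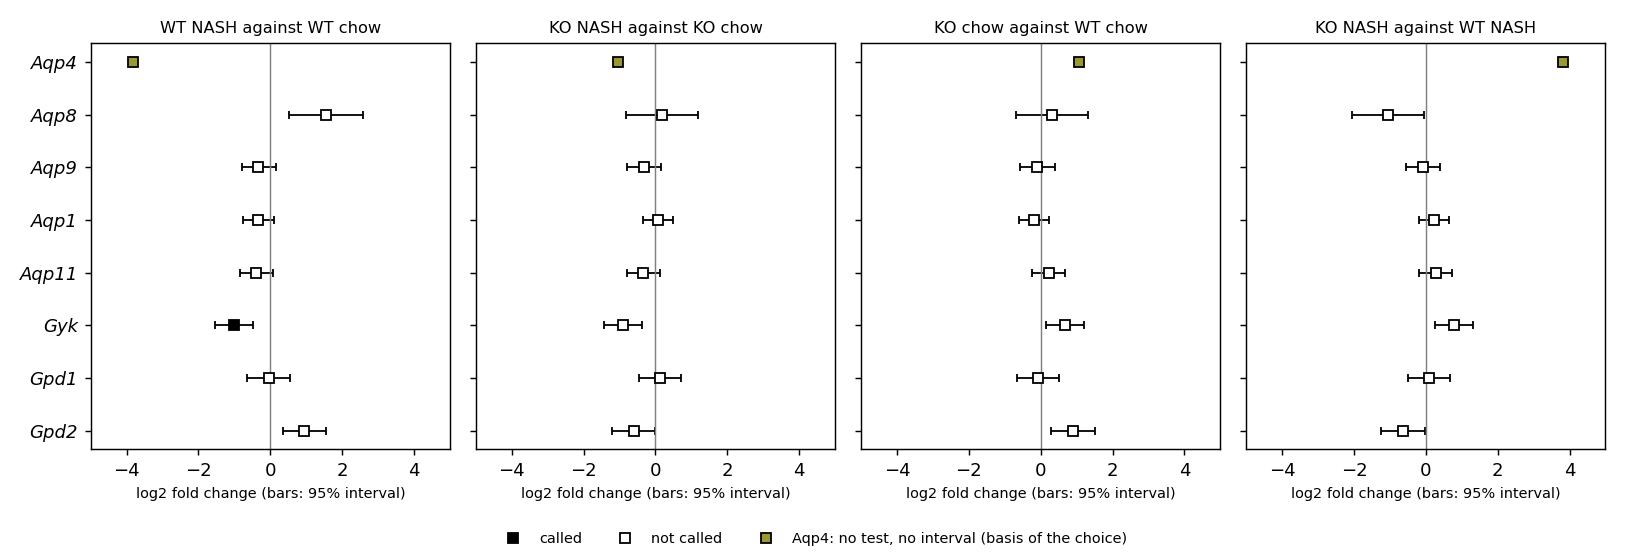
Log2 fold changes of 8 members in the 4 comparisons, with 95% intervals; black points passed the adjusted threshold of 0.05, and Aqp4 is drawn without a test or interval. Aqp3 and Aqp7, near 0 counts in WT, are not drawn; of the 8 shown the Aqp4 points at -3.82 and 3.83 lie farthest from 0, and the intervals of Aqp1, Aqp9, Aqp11 and Gpd1 stay within -0.85 to 0.72.

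Per kilobase of annotated exon, which allows genes to be compared, Aqp9 at 112 ± 24.9 CPM/kb and Gpd1 at 93.1 ± 7.41 led in WT chow. They were followed by Gyk (43 ± 13.6) and Aqp1 (40.8 ± 10.4), whose spreads overlapped, then Aqp8 (11.7 ± 6.57), Gpd2 (3.03 ± 1.04), Aqp11 (2.14 ± 0.561) and Aqp4 (1.68 ± 0.338), with Aqp3 (0.0604) and Aqp7 (0.00672) last. In WT NASH Aqp8 (34.2 ± 4.82) and Aqp1 (32.4 ± 7.44) were level and both above Gyk (21.5 ± 2.57), and Aqp4 was at 0.115 ± 0.0506. In KO chow Aqp4 (3.5 ± 0.783), Aqp3 (2.63 ± 1.61), Aqp11 (2.5 ± 0.652) and Aqp7 (2.41 ± 1.5) overlapped. In KO NASH Aqp7 (2.15 ± 1.19), Aqp11 (1.97 ± 0.381) and Aqp4 (1.69 ± 0.647) overlapped and Aqp3 was at 0.544 ± 0.257. Of the summed length-scaled level of the 7 channels, Aqp9 held 65.9% in WT chow and 58.2% in KO NASH, Aqp8 7.22% in WT chow and 21.8% in WT NASH, and Aqp7 1.63% in KO chow and 1.54% in KO NASH.

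**Figure D5:**
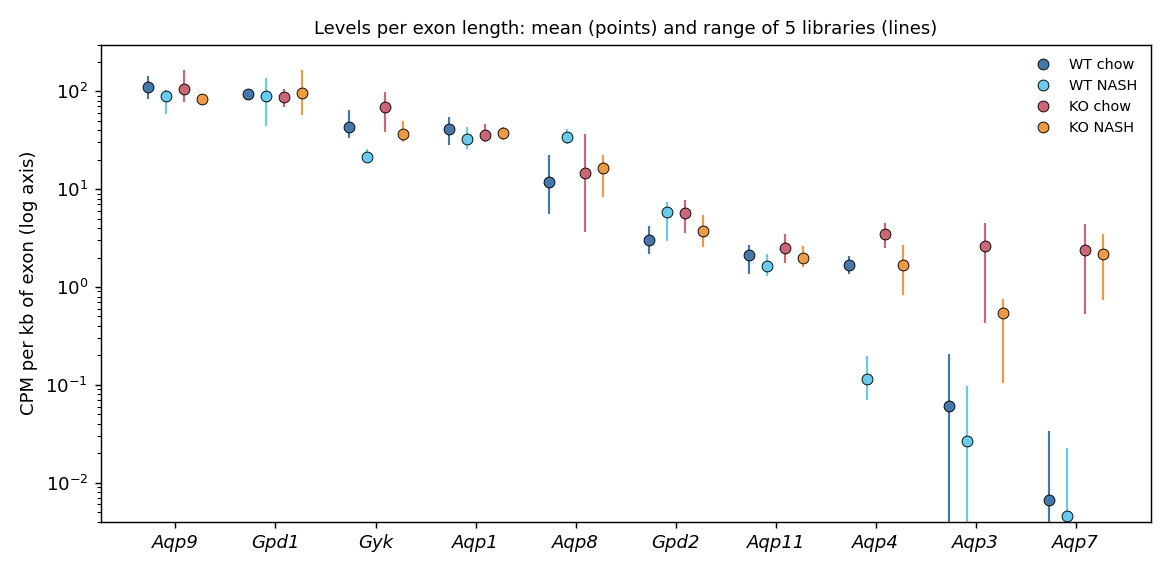
Level of the 10 members per kilobase of exon in the 4 groups (points are means in CPM/kb on a log axis, lines the range of 5 libraries, cut at the axis where it reaches 0). Aqp9 and Gpd1 stay at the top in each group, while Aqp7 and Aqp3 move from below 0.1 in WT to between 0.544 and 2.63 in KO.

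Of 5 other aquaporins, none passed the low-count filter. Aqp2, Aqp6 and Aqp12 had 0 counts in all 20 libraries, Aqp5 had 5 and Mip 1. Of 9 side genes of glycerol-3-phosphate metabolism, 7 were tested and 1 was called in KO against WT, on each diet, beside 5.53% of all genes on chow and 9.65% on the NASH diet. This was Gpat3, an acyltransferase of triglyceride synthesis (listed as Agpat9), which rose in KO on both diets. It was 9.92 ± 3.14 CPM in WT chow and 40.5 ± 16.3 in KO chow (log2 difference 2.03 with an SE of 0.397, edgeR adjusted p = 0.00548), and 12.8 ± 6.31 in WT NASH and 38.6 ± 9.48 in KO NASH (1.58, SE 0.39, adjusted p = 0.016). With sex as a term the latter was 1.7 with an adjusted p of 0.0564. The medians of the 7 genes were -0.15 and -0.16 for diet in WT and KO, and 0.27 and 0.34 for genotype on chow and the NASH diet.

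Of the genes listed for triose and glucose output, Pck1 among them, 7 were tested. KO against WT called 1 of them on chow and 2 on the NASH diet, beside 5.53 and 9.65% of all genes. Tkfc, which phosphorylates dihydroxyacetone and glyceraldehyde, was lower in KO NASH than in WT NASH (-1.02, edgeR adjusted p = 0.0358), but not with sex as a term (-0.53, adjusted p = 0.37) or without any 1 of replicates 1, 2, 3 and 5 of either group, and the value was 0.19 in males only. Pck1, in the same list though its step precedes the entry of triose phosphates, fell in KO on both diets and enters the genotype medians. The list's medians were -0.65 and -0.78 for diet in WT and KO, and 0.04 and -0.25 for genotype on chow and the NASH diet.

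Of the lipases and cofactors that release glycerol from triglyceride, 8 were tested. On chow 2 of the 8 rose in KO, beside 5.53% of all genes called, namely Pnpla2 (adipose triglyceride lipase, 1.99, SE 0.483, adjusted p = 0.0208) and Lipe (hormone-sensitive lipase, 1.28, SE 0.313, adjusted p = 0.0213). Pnpla2 lost its call without WT chow replicate 3 or 4 or KO chow replicate 1 or 2, and Lipe without WT chow replicate 3 or KO chow replicate 1 or 2. In an edgeR fit of the 2 groups alone neither passed (adjusted p = 0.0955 and 0.103). On the NASH diet 3 rose in KO and 1 fell, beside 9.65% of all genes called. Lipe was 9.48 ± 1.8 CPM in WT NASH and 33.4 ± 5.13 in KO NASH (1.81, adjusted p = 0.00161), and this call held in all alternatives run. Lpl, lipoprotein lipase, rose (2.59, edgeR adjusted p = 0.0176), from 36.3 ± 10.5 CPM in WT NASH to 218 ± 245 in KO NASH. The groups overlapped, and the KO NASH libraries ran from 26.2 to 519 CPM with a median of 52.8. The Lpl call was lost without KO NASH replicate 1 or 5, with the 2 summed (0.0591) and with sex as a term (1.71, adjusted p = 0.195). It was lost also with sex and slope as terms (0.176), in the 2 groups alone (0.0501) and with replicates as blocks (0.0653). Pnpla2 rose in KO NASH too (1.58, edgeR adjusted p = 0.0412) but not with sex as a term (1.13, adjusted p = 0.256). It did not pass with KO NASH replicates 1 and 5 summed (0.0896). The Pnpla2 call was lost without any 1 of the 5 WT NASH libraries or KO NASH replicates 1, 3 and 5. Pnpla3, a lipid droplet protein, fell in KO NASH (-3.54, adjusted p = 0.00537) and rose with diet in WT (2.56, adjusted p = 0.038). With sex as a term neither Pnpla3 call held (adjusted p = 0.0774 and 0.643), and in males only the values were 0.21 and -1.82. The WT diet call was also lost without WT chow replicate 1, 2, 4 or 5 or WT NASH replicate 2, 3 or 5. The list's medians were -0.25 and -0.5 for diet in WT and KO, and 0.48 and 0.16 for genotype on chow and the NASH diet.

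The 5 named genes most like Aqp4 over the 20 libraries, by Pearson's r of log2 CPM among 11508 genes, were Cidec (0.92), Gstt2 (0.91), Cyp4a32 (0.91), Slc6a16 (0.91) and Mtx3 (0.89). The libraries share groups, sexes and depth, so these are descriptions. Cidec, a lipid droplet protein, was in WT 42.2 ± 26.7 CPM on chow and 0.886 ± 0.434 on the NASH diet, and in KO 295 ± 137 and 115 ± 25.5. WT NASH was the lowest group for all 5 genes, as for Aqp4, and they were picked for their likeness to Aqp4.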

How the data were processed

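RNA was extracted with Trizol and sequenced from 20 livers, per the labels' protocols. The reads were aligned to GRCm38 with HISAT2 2.0.4, per the submitters' processing notes. The counting program, annotation and strand setting were not given in the sources used here. Raw counts were deposited by the authors, per gene symbol, with no normalization, and 1 column a library. The columns are headed HFD and CD, and HFD was taken as the NASH diet and CD as chow, since the labels give no other diets. Counts at low depth are imprecise, since 1 count was 0.0402 to 0.147 CPM.

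The analysis used edgeR 4.0.16 in R 4.3.3 (limma 3.58.1 and DESeq2 1.42.0 in alternatives). The filter filterByExpr (minimum count 10) kept 14440 genes with 99.91% of counts. A quasi-likelihood model with a coefficient for each group was fitted to all 20 libraries with TMM scaling, which pools the spread (common biological coefficient of variation 39%). The call threshold was 0.05 on two-sided p-values, Benjamini-Hochberg adjusted over all tested genes. SEs came from the log2 fold change and the F statistic, and intervals used 95% confidence. The scripts were tested on simulated data with 200 genes changed 4-fold. KO NASH replicates 1 and 5 were the most alike pair (chi-square per gene 7.98, next 21.6), above sampling noise, and were counted separately.

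Sex was read from Y-linked counts (at least 100 for male). The length slope was fitted on 9499 genes, and 93.3% of tested genes had a GENCODE M21 length. The text names all 10 members, Pck1, the called genes of each pathway list (at most 3 a list and contrast, by size of change), and the 5 genes most correlated with Aqp4 among those of at least 1 CPM on average, predicted genes and pseudogenes passed over. A called gene of these lists is not reported here. Cfd was named after its values were seen. The members and lists were chosen with earlier results of these data known. Alternatives were other scaling, filters, tools, terms for sex and length slope, a replicate block, males only and leaving out libraries.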

Additional observations from a re-analysis of the deposited data

Results flagged for a closer look

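Among 40 group values of the 10 members, 5 had 1 library far from the other 4 of its group, where chance gives about 1 in 20. Aqp3 in KO NASH replicate 4 was 0.192 CPM, against 1.03 to 1.36 in the others. Aqp7 in WT chow replicate 4 was 0.095 CPM and in WT NASH replicate 5 was 0.0646 CPM, a single count each, with 0 in the other libraries. A lone count among 0s always meets the rule, so the rate of 1 in 20 does not hold for Aqp7 there. In WT NASH replicate 4 Aqp9 was 246 CPM (others 382 to 431) and Gpd2 was 19.4 CPM (others 40.6 to 48.8). That library was the only male and the only one of negative length slope in its group, and the part of either in these values was not tested.

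For Gpd2, KO libraries lay higher than the WT mean on chow and lower than the WT mean on the NASH diet. The difference between the genotype effects was -1.56 on the log2 scale, and its edgeR adjusted p of 0.148 missed the threshold. With the length slope as a term it was -1.55 with an adjusted p of 0.0127, and without WT NASH replicate 4 it was -1.73 with an adjusted p of 0.0275. It stayed uncalled in 29 of 33 alternatives, sex as a term and the replicate block among them. Over all 33 the value ran from -2.23 to -0.8.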

How the results depend on the processing

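Over the alternatives, 29 tested results for single genes gave 978 values, of which 819 kept their direction and side of the threshold, 99 lost and 55 gained a call, and 5 reversed. The 5 Aqp4 values, which have no threshold, gave 169, of which 3 moved by over 1 SD. They reuse the libraries by which Aqp4 was chosen and test nothing. The share of all genes called changed with the setting. For diet in WT it was 10.4% by DESeq2, 40.6% by limma-voom, 1.11% with sex as a term and 12.3% with the slope. With both terms it was 5.01%, and with the replicate block 7.11%. In the 2 groups alone it was 2.95% and at a mean of at least 5 CPM 7.44%. For diet in KO these shares were 9.02, 12.7, 3.98 and 6.37%, then 9.37, 3.7, 2.18 and 3.14%. There it was 0.96% without the low-count filter, 1.27% with KO NASH replicates 1 and 5 summed and 8.01% without the 6 libraries. The number of the 9 members called changed as well. It includes members that were not followed singly and are not named. For diet in WT it was 1, with 2 at a mean of at least 5 CPM, 3 by DESeq2, 4 by limma-voom, 2 in a fit of the 2 groups alone, 3 with the replicate block, 0 with sex as a term, 3 with the length slope, 2 with both, 0 in males only, and 0 to 2 when 1 library was left out. For diet in KO it was 1, with 0 without the low-count filter, 0 at a mean of at least 5 CPM, 2 by DESeq2, 4 by limma-voom, 0 in the 2 groups alone, 0 with the replicate block, 2 with sex, 4 with the slope, 4 with both, 0 in males only, 0 with KO NASH replicates 1 and 5 summed, 4 without the 6 libraries of negative slope (chosen after seeing the data), and 0 to 2 with 1 library left out. For KO against WT on chow it was 2 (limma-voom called 40.4% of all genes), with 0 at a mean of at least 5 CPM, where Aqp3 and Aqp7 were not tested, 4 by limma-voom, and 2 to 3 with 1 library left out. On the NASH diet it was 2 (limma-voom 23.8%, the slope 16.5%, without the 6 libraries 21.3%), with 0 at that filter, 5 by limma-voom, 4 in the 2 groups alone, 4 with the slope, 1 in males only, 5 without the 6 libraries, and 2 to 3 with 1 library left out. For the interaction it was 0, with 1 by DESeq2, 1 by limma-voom, 1 with the slope, and 0 to 1 with 1 library left out. With the slope 1.32% of all genes were called there.

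The reversed values were all in males only, where WT NASH had 1 library assumed to vary like the others. They were -0.04 for Gpd2, diet in WT, 0.24 for Gpd2, KO against WT on the NASH diet, 0.19 for Tkfc and 0.21 for Pnpla3 in that contrast, and -1.82 for Pnpla3, diet in WT. There the median of all genes was at 0.14 for KO against WT on the NASH diet and 0.12 for the interaction. The cause of these changes was not tested. Across groups, 30 same-numbered pairs of libraries correlated at -0.41 to 0.52 (median 0.05, 13 over 0.1). The 120 pairs of other numbers correlated at -0.65 to 0.57 (median -0.02, 35 over 0.1). Of the 20 libraries, 6 correlated best with their own number. Whether the replicate numbers pair the samples could not be told from these values. Depth limits Aqp3 and Aqp7 in WT, where a library held at most 4 counts.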
